A study of Mus musculus with 7 samples.

Results

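The genes described here encode the subunits of the proteasome, its assembly chaperones, its activators and an inhibitory partner. They were chosen by symbol alone, as the rows of the count table whose names begin with Psma to Psmg followed by a number, without the immunoproteasome genes Psmb8, Psmb9 and Psmb10. That gave 46 of the 25655 genes in the table. The rule used no measured value, but earlier results of these data were known when the genes were chosen. Poly(A)-selected RNA came from whole retinas of wildtype C57BL/6 mice, collected 2 days after the optic nerve had been crushed, which injures retinal ganglion cell axons. Every retina had thus been injured, and every one had received AAV2, an adeno-associated virus used as a gene vector, that carried either Tppp3 for overexpression or a control construct. A CMV promoter is named in the labels for the control vector; no source used here gives the promoter of the Tppp3 vector, the animals' ages or the number of animals behind a library. The comparison rests on 3 Tppp3 AAV2 libraries and 3 control AAV2 libraries. Nothing in the labels says that these came from separate animals, so p-values measure only the spread between libraries, which may be technical. In whole retina, fewer cells of a type and less RNA per cell cannot be told apart.

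The proteasome is the protease that breaks down proteins tagged with ubiquitin. Its 20S core is a barrel: outer alpha rings gate the entrance, and inner beta rings carry the cleaving sites. The 19S cap sits on the barrel, binds and removes the ubiquitin chain, and threads the unfolded protein inward with a ring of ATPases. Other activators open the same gate without ubiquitin recognition, and immune signals such as interferon gamma raise the PA28 activator and replace the catalytic beta subunits by immunoproteasome forms. In injured nerve, the ubiquitin-proteasome system is known for its part in the breakdown of axons.

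The Tppp3 AAV2 libraries held 19961359 to 21843892 gene counts and the control libraries 10961443 to 16218074, so every Tppp3 library was the deeper. Of these, 54564 to 59701 counts per Tppp3 library and 30911 to 44331 per control library fell on proteasome genes. Tppp3 itself stood at 53.7, 36.5 and 41.8 CPM (the gene's counts scaled to a fixed library size) in the Tppp3 libraries and at 18.7, 22.2 and 28.0 CPM in the controls, with no overlap. This came to 0.94 ± 0.20 (SE) on the log2 scale, with an adjusted p of 0.638 in edgeR and a two-sided exact permutation p of 0.1, the smallest that 3 against 3 libraries allow. DESeq2 gave Tppp3 an adjusted p of 2.08e-05. Genes of Müller glia, the main glia of the retina, summed to 4130 to 4807 CPM in the Tppp3 libraries and 3696 to 4412 CPM in the controls. Pigment epithelium genes, which mark tissue next to the retina, were uneven, with sums of 231, 59.8 and 219 CPM in Tppp3 libraries 1, 2 and 3 and 217, 46.9 and 47.8 CPM in control libraries 1, 2 and 3. Of 6 tested surface epithelium genes, 5 were lower in every Tppp3 library than in any control library, where 7.02% of all tested genes were. Of these genes 1 passed in edgeR, with an adjusted p of 0.0321, and 3 passed in DESeq2. The part of surface epithelium in the values below was not tested.

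No proteasome gene passed the test. Of the 46 genes, 43 had enough counts to be tested, and 0 of them changed at an edgeR adjusted p under 0.05, where 0.0136% of all tested genes did. The counts were also 0 with DESeq2, which called 0.104% of the genes it gave an adjusted p, and 0 with limma's voom, and 0 proteasome genes had an unadjusted edgeR p under 0.05, against 7.23% of all tested genes. Together the family took 0.273, 0.273 and 0.264% of the counts in Tppp3 libraries 1, 2 and 3 and 0.273, 0.273 and 0.284% in control libraries 1, 2 and 3. That share was nearly level, with the lowest value in Tppp3 library 3 and the highest in control library 3.

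The fitted differences were small. Log2 fold changes ran from -0.16 for Psmd9 to 0.12 for Psme2, with 18 positive and 25 negative and a median of -0.029, beside 0.0030 over all genes tested. A negative value was found in 49.1% of all tested genes. For the 31 tested genes of the core and cap, every 95% interval of the fold change lay between -22.4% and 13.8%, each taken alone. The data therefore bound a change of these subunits at about that size and do not show that it is nil. Psmb7, Psmc2 and Psmf1 were the 3 genes that lay lower in every Tppp3 library than in any control library, and 0 lay higher. Over all tested genes, 7.02% were lower without overlap and 6.92% higher, so 3 of 43 is near the background.

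**Figure D1:**
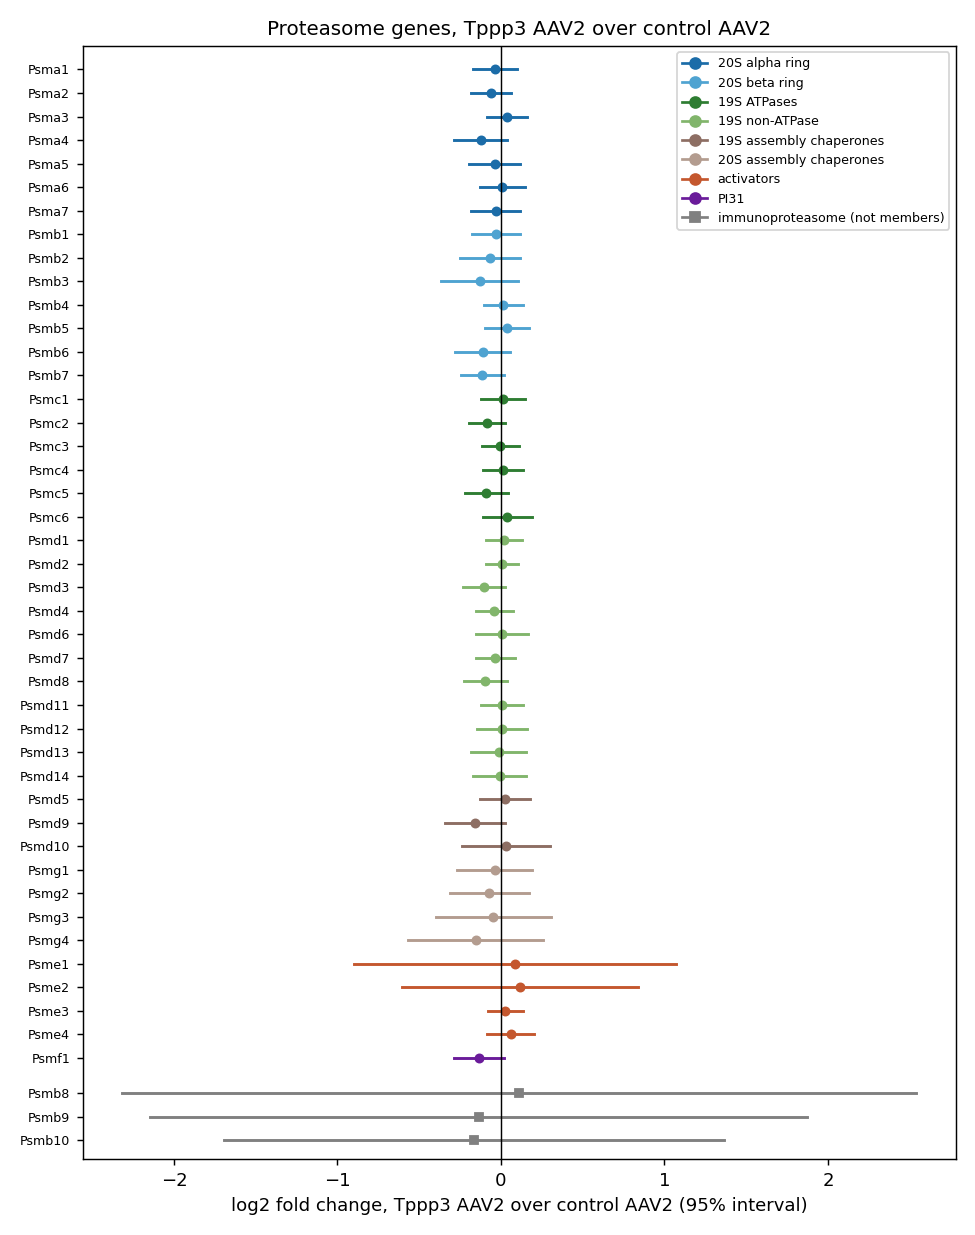
Log2 fold change, Tppp3 AAV2 over control AAV2, with its 95% interval for each of the 43 tested proteasome genes, coloured by class, and for 3 immunoproteasome genes below them in grey. Every interval crosses 0, and those of Psme1, Psme2 and the immunoproteasome genes are the widest.

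Promoter sequences of 5 genes are shown because the results turn on these genes: Psme1 and Psme2 varied most between libraries, Psmb5 and Psmb6 carry proteolytic sites, and Psmd2 varied least. They are RefSeq sequences of build GRCm38.p6, 250 bases before to 50 after the start of each gene, 5′ to 3′ on the gene's strand. Capitals mark matches, on either strand, to 4 of the 8 motifs searched: TGACNNNGC, the core of the element bound by NRF1 (gene Nfe2l1), which raises proteasome genes; a repeat of GAAA with any pair of bases between, the core of the interferon-stimulated element; CCGGAAG, the ETS-type element; and CCAAT. For Psme2, the first of its 2 windows is shown. Of the 46 genes, 38 had a window in the table. The window of Psme1 is chr14:55578244-55578543 on the plus strand. The window of Psme2 is chr14:55591052-55591351 on the minus strand. The window of Psmb5 is chr14:54617946-54618245 on the minus strand. The window of Psmb6 is chr11:70525107-70525406 on the plus strand. The window of Psmd2 is chr16:20651402-20651701 on the plus strand.
Psme1: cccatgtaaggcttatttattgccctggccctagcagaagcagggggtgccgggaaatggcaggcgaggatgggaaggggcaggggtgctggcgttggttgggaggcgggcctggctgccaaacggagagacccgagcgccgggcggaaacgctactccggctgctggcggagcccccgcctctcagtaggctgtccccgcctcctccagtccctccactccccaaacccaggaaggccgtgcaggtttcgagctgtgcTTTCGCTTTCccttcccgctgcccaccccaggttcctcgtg
Psme2: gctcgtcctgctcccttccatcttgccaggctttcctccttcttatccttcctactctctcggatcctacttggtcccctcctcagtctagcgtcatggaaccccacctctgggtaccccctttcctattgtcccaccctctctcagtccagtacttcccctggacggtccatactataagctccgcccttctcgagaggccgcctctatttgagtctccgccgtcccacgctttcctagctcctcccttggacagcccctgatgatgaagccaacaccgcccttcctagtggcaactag
Psmb5: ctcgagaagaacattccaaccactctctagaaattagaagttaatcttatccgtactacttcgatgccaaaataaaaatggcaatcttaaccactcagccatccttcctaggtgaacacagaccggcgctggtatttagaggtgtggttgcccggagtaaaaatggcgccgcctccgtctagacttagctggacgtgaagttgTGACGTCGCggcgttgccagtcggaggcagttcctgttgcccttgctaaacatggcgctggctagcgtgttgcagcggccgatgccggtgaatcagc
Psmb6: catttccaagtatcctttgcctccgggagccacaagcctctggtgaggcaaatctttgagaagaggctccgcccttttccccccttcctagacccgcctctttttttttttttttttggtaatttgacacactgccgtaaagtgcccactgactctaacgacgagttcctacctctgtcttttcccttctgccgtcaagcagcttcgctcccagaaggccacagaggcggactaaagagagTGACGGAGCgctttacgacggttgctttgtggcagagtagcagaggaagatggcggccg
Psmd2: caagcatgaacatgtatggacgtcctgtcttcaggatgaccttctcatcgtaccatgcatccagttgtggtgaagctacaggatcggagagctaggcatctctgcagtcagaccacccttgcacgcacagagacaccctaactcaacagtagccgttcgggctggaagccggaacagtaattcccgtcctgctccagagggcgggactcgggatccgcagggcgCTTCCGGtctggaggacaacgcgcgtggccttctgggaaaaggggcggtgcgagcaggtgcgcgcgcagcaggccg

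The window of Psme1 held the GAAA repeat on the strand opposite the gene, just after the start site, and that of Psme2 held none of the 4 motifs in capitals. Psmb5 and Psmb6 each held TGACNNNGC a short way before the start site, and Psmd2 held CCGGAAG. Psmb7, another gene for a proteolytic site, was not among the genes found to hold TGACNNNGC. Whether it was among the 38 genes with a window is not given here. Over the family, CCGGAAG was found in 14 of 38 (36.8%) genes with a window, against 9.93% of all 27025 genes in the promoter table. The GAAA repeat was found in 5 of 38 (13.2%) against 3.99%, in Psmb3, Psmd4, Psmd9, Psme1 and Psmg4, of which Psme1 was the one that varied widely between libraries. TGACNNNGC was found in 6 of 38 (15.8%) against 14.0% and CCAAT in 13 of 38 (34.2%) against 41.1%. The others searched, on both strands too, were TGANNNNGC in 21 of 38 (55.3%) against 45.0%, which overlaps TGACNNNGC, GGAAGTG in 8 of 38 (21.1%) against 12.5%, and AGCATGC in 4 of 38 (10.5%) against 4.04%. The long ZNF143-type motif was found in 1 of 38 (2.63%) against 0.607%. A match describes the letters in the window and is not a bound site. The promoter table was not limited to genes detected in these libraries, and the shares were not compared with those of detected genes. In the same assembly's gene order, Psme1 and Psme2 are separated by 1 protein-coding gene, and Psmb5 and Psmb11 are direct neighbours, although Psmb11 was nearly undetected beside 51.4 CPM of Psmb5 in the Tppp3 libraries and 50.1 CPM in the controls.

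The genes of the 20S core summed to 850.0, 829 and 814 CPM in Tppp3 libraries 1, 2 and 3 and to 849, 838 and 877 CPM in control libraries 1, 2 and 3. The sums overlapped, with control library 3 the highest and Tppp3 library 3 the lowest. Of 16 core genes 14 were tested, with 4 positive and 10 negative fold changes and a median log2 fold change of -0.037. That median was -0.0084 after an offset for GC content and transcript length, and -0.0090 without control library 3.

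**Figure D2:**
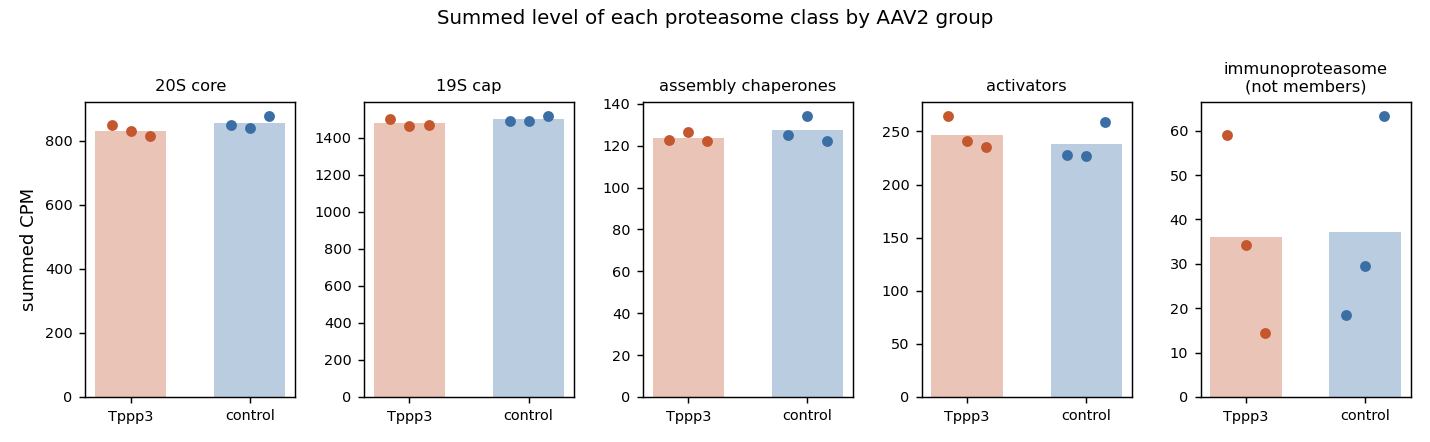
Summed CPM of each class of proteasome genes in the Tppp3 AAV2 libraries (left of each panel) and the control AAV2 libraries (right); bars are means and points are libraries 1, 2 and 3 from left to right. Core, cap and chaperone sums are nearly level, while the immunoproteasome sums run from 14.5 to 63.4 CPM with a similar range in both groups.

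In the alpha ring, which forms the gate and the docking surface for the cap, 7 of 8 genes were tested, 2 positive and 5 negative. Psma4, an alpha ring subunit, stood at 45.7, 52.9 and 45.5 CPM in Tppp3 AAV2 libraries 1, 2 and 3 and at 50.1, 52.5 and 54.3 CPM in control AAV2 libraries 1, 2 and 3. Tppp3 libraries 1 and 3 were the low ones, library 2 lay among the controls, and the groups overlapped (log2 fold change -0.12 ± 0.074 (SE), edgeR adjusted p = 0.767). Psma2, another subunit of the same ring, stood at 67.6, 68.1 and 71.2 CPM in Tppp3 AAV2 libraries 1, 2 and 3 and at 69.5, 73.4 and 72.6 CPM in control AAV2 libraries 1, 2 and 3. Its groups overlapped as well, at a log2 fold change of -0.059 ± 0.055 (SE) with an edgeR adjusted p of 0.857. The log2 fold changes of the 5 other tested alpha genes lay between -0.038 for Psma5 and 0.037 for Psma3. Psma8, whose product takes the place of Psma7 in the testis, had counts of 3, 4 and 0 in the Tppp3 libraries and 0, 3 and 0 in the controls, too few to test.

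The beta ring holds the proteolytic sites on some of its subunits, and the genes of these were examined singly. Psmb5, which carries the chymotrypsin-like site, stood at 52.2, 50.9 and 51.1 CPM in Tppp3 AAV2 libraries 1, 2 and 3 and at 52.2, 50.3 and 47.7 CPM in control AAV2 libraries 1, 2 and 3. These values differed by no more than 1.09-fold between any libraries, at a log2 fold change of 0.037 ± 0.061 (SE) with an edgeR adjusted p of 0.928. Psmb6, the caspase-like subunit, stood at 74.5, 59.8 and 69.2 CPM in Tppp3 AAV2 libraries 1, 2 and 3 and at 72.6, 71.8 and 75.6 CPM in control AAV2 libraries 1, 2 and 3. Tppp3 library 2 was the low one and the groups overlapped, at a log2 fold change of -0.11 ± 0.078 (SE) with an edgeR adjusted p of 0.801. The value was -0.029 without that library, -0.19 without Tppp3 library 1 and -0.022 with the offset for GC content and length. Psmb7, the trypsin-like subunit, stood at 77.8, 79.5 and 77.2 CPM in Tppp3 AAV2 libraries 1, 2 and 3 and at 81.1, 81.5 and 91.5 CPM in control AAV2 libraries 1, 2 and 3. All 3 Tppp3 values lay below the controls by a narrow margin, with control library 3 well above the rest. Psmb7 had a log2 fold change of -0.11 ± 0.060 (SE), a 95% interval of -0.25 to 0.018 and an edgeR adjusted p of 0.736. Without control library 3 it was -0.056, and with the same offset -0.070.

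Among the structural beta subunits, Psmb4 stood at 112, 104 and 101 CPM in Tppp3 AAV2 libraries 1, 2 and 3 and at 104, 105 and 106 CPM in control AAV2 libraries 1, 2 and 3. It was level across groups, at a log2 fold change of 0.015 ± 0.054 (SE) with an edgeR adjusted p of 0.975. Psmb1, Psmb2 and Psmb3 had log2 fold changes of -0.029, -0.068 and -0.13, and in Psmb3 a single low value of 25.4 CPM in Tppp3 library 3 stood against 31.7 to 34.6 CPM in Tppp3 libraries 2 and 1 and 32.3 to 34.0 CPM in the controls. Psmb11, the subunit of the thymus form, had 1, 1 and 0 counts in the Tppp3 libraries and 1, 0 and 1 in the controls.

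The 19S cap genes summed to 1502, 1463 and 1472 CPM in Tppp3 libraries 1, 2 and 3 and to 1493, 1491 and 1519 CPM in control libraries 1, 2 and 3. All 17 were tested, 8 positive and 9 negative, with a median log2 fold change of -0.0040 that took both signs when single libraries were left out (-0.026 to 0.0085). Of the 6 ATPases that unfold the substrate, Psmc2 stood at 82.3, 83.9 and 82.6 CPM in Tppp3 AAV2 libraries 1, 2 and 3 and at 86.5, 90.2 and 87.2 CPM in control AAV2 libraries 1, 2 and 3. Every Tppp3 value was below every control value, but by little, at a log2 fold change of -0.086 ± 0.050 (SE) with a 95% interval of -0.20 to 0.024 and an edgeR adjusted p of 0.767. Psmc5, a further ATPase of that ring, stood at 109, 105 and 98.6 CPM in Tppp3 AAV2 libraries 1, 2 and 3 and at 103, 114 and 116 CPM in control AAV2 libraries 1, 2 and 3. Here the groups overlapped, since control library 1 was as low as the Tppp3 libraries (log2 fold change -0.089 ± 0.060 (SE), edgeR adjusted p = 0.795). The log2 fold changes of Psmc1, Psmc3, Psmc4 and Psmc6 lay between -0.0040 and 0.040.

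The 11 non-ATPase cap genes had 5 positive and 6 negative fold changes, from -0.10 for Psmd3 to 0.021 for Psmd1. Psmd3, a scaffold subunit of the lid, stood at 99.2, 91.0 and 90.0 CPM in Tppp3 AAV2 libraries 1, 2 and 3 and at 105, 100.4 and 95.4 CPM in control AAV2 libraries 1, 2 and 3. Tppp3 library 1 reached the control range, and the log2 fold change came to -0.10 ± 0.059 (SE) (edgeR adjusted p = 0.767). Psmd8, also a lid subunit, stood at 88.9, 77.5 and 80.8 CPM in Tppp3 AAV2 libraries 1, 2 and 3 and at 86.1, 89.4 and 88.3 CPM in control AAV2 libraries 1, 2 and 3. Tppp3 libraries 2 and 3 were low and library 1 lay among the controls (log2 fold change -0.095 ± 0.061 (SE), edgeR adjusted p = 0.783). The cap's dealings with ubiquitin rest on other subunits. Psmd4, a receptor for ubiquitin chains, stood at 79.7, 84.1 and 83.1 CPM in Tppp3 AAV2 libraries 1, 2 and 3 and at 86.4, 85.3 and 82.2 CPM in control AAV2 libraries 1, 2 and 3. Psmd14, the deubiquitinase that cuts the chain off, stood at 40.5, 45.2 and 44.0 CPM in Tppp3 AAV2 libraries 1, 2 and 3 and at 46.8, 41.4 and 42.4 CPM in control AAV2 libraries 1, 2 and 3. The groups overlapped in both, although Psmd4 was lower in Tppp3 library 1 than in any control library, at log2 fold changes of -0.040 ± 0.052 and -0.0078 ± 0.073 (SE), with edgeR adjusted p of 0.909 and 0.990, and the sign of neither held over all alternatives. Psmd11, a lid subunit, stood at 63.1, 58.9 and 60.8 CPM in Tppp3 AAV2 libraries 1, 2 and 3 and at 61.4, 62.0 and 58.6 CPM in control AAV2 libraries 1, 2 and 3. It too showed no separation, at a log2 fold change of 0.0053 ± 0.059 (SE) with an edgeR adjusted p of 0.991. Psmd2, a large subunit of the base, ranged from 199 to 202 CPM in the Tppp3 libraries and from 196 to 202 CPM in the controls.

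Assembly chaperones help to build the particle and leave it when it is complete. Their 7 genes summed to 123, 127 and 122 CPM in Tppp3 libraries 1, 2 and 3 and to 125, 134 and 122 CPM in control libraries 1, 2 and 3. Psmd9, a chaperone of the cap base, stood at 25.5, 26.4 and 24.0 CPM in Tppp3 AAV2 libraries 1, 2 and 3 and at 29.7, 29.1 and 26.0 CPM in control AAV2 libraries 1, 2 and 3. Its highest Tppp3 value passed the lowest control value, and it had the most negative fold change of the family, -0.16 ± 0.084 (SE), with a 95% interval of -0.34 to 0.023 and an edgeR adjusted p of 0.730. Psmd5, another base chaperone, stood at 45.8, 49.5 and 46.7 CPM in Tppp3 AAV2 libraries 1, 2 and 3 and at 47.1, 49.3 and 43.2 CPM in control AAV2 libraries 1, 2 and 3, at a log2 fold change of 0.024 ± 0.070 (SE) with an edgeR adjusted p of 0.965. Psmd10, the third of them, had a log2 fold change of 0.031.

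The chaperones of the core, Psmg1 to Psmg4, were all scarce, and their log2 fold changes were all negative without passing the test. Psmg4 stood at 4.22, 3.79 and 4.56 CPM in Tppp3 AAV2 libraries 1, 2 and 3 and at 4.33, 4.67 and 4.97 CPM in control AAV2 libraries 1, 2 and 3, from 83, 84 and 96 counts in the Tppp3 libraries and 49, 76 and 55 in the controls. At that depth its interval was wide, -0.57 to 0.26 around -0.15, with an edgeR adjusted p of 0.901. Psmg2 stood at 11.7, 13.3 and 12.2 CPM in Tppp3 AAV2 libraries 1, 2 and 3 and at 12.5, 13.5 and 13.1 CPM in control AAV2 libraries 1, 2 and 3. The groups overlapped, at a log2 fold change of -0.071 ± 0.11 (SE) with an edgeR adjusted p of 0.925, and the sign turned to 0.056 when the libraries were thinned to equal depth. Psmg1 and Psmg3 had log2 fold changes of -0.039 and -0.046. Psmf1 encodes PI31, which binds the core and was first described as its inhibitor. It stood at 32.5, 32.9 and 33.6 CPM in Tppp3 AAV2 libraries 1, 2 and 3 and at 37.0, 34.2 and 37.7 CPM in control AAV2 libraries 1, 2 and 3. The lowest control library lay just above the highest Tppp3 library. Psmf1 had a log2 fold change of -0.14 ± 0.070 (SE), a 95% interval of -0.29 to 0.020 and an edgeR adjusted p of 0.730.

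The activators split into genes that were steady and genes that varied between the libraries within each group. Psme3, which encodes the nuclear activator PA28 gamma, stood at 103, 97.7 and 102 CPM in Tppp3 AAV2 libraries 1, 2 and 3 and at 98.0, 100.4 and 98.9 CPM in control AAV2 libraries 1, 2 and 3. Psme4, the gene of the activator PA200, stood at 84.9, 78.3 and 87.9 CPM in Tppp3 AAV2 libraries 1, 2 and 3 and at 85.9, 75.7 and 79.3 CPM in control AAV2 libraries 1, 2 and 3. Both were level, at log2 fold changes of 0.028 ± 0.049 (SE) and 0.060 ± 0.066 (SE) with edgeR adjusted p of 0.934 and 0.882. Psme1 and Psme2 encode PA28 alpha and beta, which form a ring together. Psme1 stood at 42.6, 39.6 and 23.9 CPM in Tppp3 AAV2 libraries 1, 2 and 3 and at 23.5, 30.0 and 46.6 CPM in control AAV2 libraries 1, 2 and 3. Psme2 stood at 33.6, 25.2 and 20.8 CPM in Tppp3 AAV2 libraries 1, 2 and 3 and at 20.1, 20.5 and 33.2 CPM in control AAV2 libraries 1, 2 and 3. In both genes, Tppp3 library 1 and control library 3 were high, and Tppp3 library 3 and control library 1 were low, so that each group spanned most of the range. In Psme2, control library 2 was low as well, just below Tppp3 library 3. The printed promoter window of Psme1 holds the interferon-type motif and that of Psme2 does not.

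The highest Psme1 value was 1.98 times the lowest, and the highest Psme2 value 1.68 times the lowest, while Psme3 differed by 1.06-fold at most. Psme1 averaged 35.4 ± 10.1 CPM in the Tppp3 AAV2 libraries and 33.4 ± 11.9 CPM in the control libraries (SD, n = 3 each). Psme2 averaged 26.6 ± 6.52 CPM in the Tppp3 AAV2 libraries and 24.6 ± 7.43 CPM in the control libraries (SD, n = 3 each). The log2 fold changes were 0.086 ± 0.37 (SE) and 0.12 ± 0.28 (SE), with 95% intervals of -0.90 to 1.07 and -0.61 to 0.84 and edgeR adjusted p of 0.981 and 0.959. Single libraries set their sign: Psme1 ranged from -0.11 without control library 1 to 0.40 without control library 3, and Psme2 from -0.095 without Tppp3 library 1 to 0.39 without control library 3. Taking the pigment epithelium list as a covariate gave 0.41 and 0.25, and the GC content and length offset gave 0.16 and 0.19. The median over the 4 tested activators, 0.073, moved to -0.033 without Tppp3 library 1 and 0.22 without control library 3. Psme2b had counts of 7, 2 and 10 in the Tppp3 libraries and 5, 11 and 5 in the controls, too few to test. Its coding sequence is identical to that of Psme2 at 715 of 720 bases in the GENCODE transcripts. Its counts and an unknown part of those of Psme2 are therefore uncertain.

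**Figure D3:**
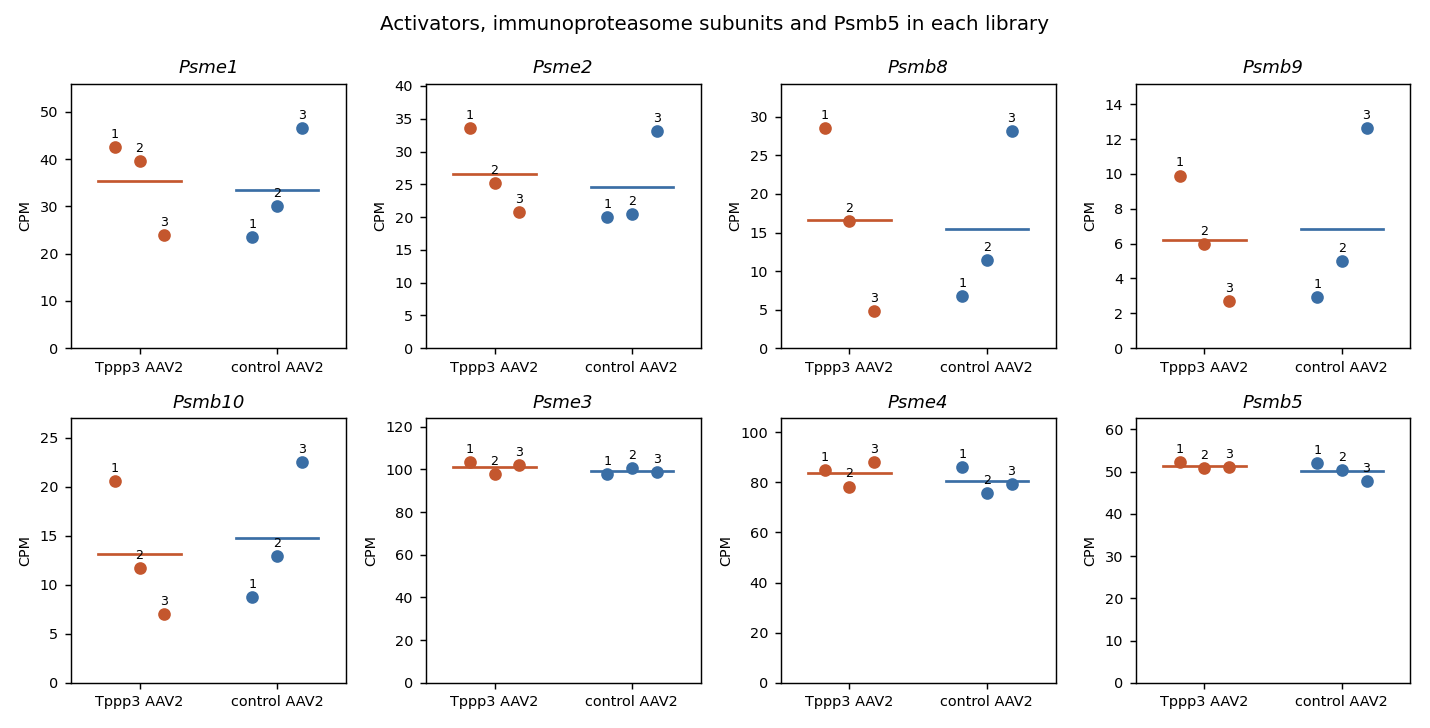
CPM of the activator genes, the immunoproteasome genes and Psmb5 in each Tppp3 AAV2 library (left) and control AAV2 library (right), numbered by replicate, with lines at the group means. Tppp3 library 1 and control library 3 are high for Psme1, Psme2 and the immunoproteasome genes, which Psme3, Psme4 and Psmb5 do not follow.

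The immunoproteasome genes, which were left out of the family by rule, showed the same libraries high and low. Their products, from Psmb8, Psmb9 and Psmb10, replace those of Psmb5, Psmb6 and Psmb7. They summed to 59.1, 34.3 and 14.5 CPM in Tppp3 libraries 1, 2 and 3 and to 18.5, 29.4 and 63.4 CPM in control libraries 1, 2 and 3. Per kilobase of transcript, Psmb8 stood at 30.3, 18.0 and 5.18% of Psmb5 in the Tppp3 libraries and at 7.21, 12.6 and 32.6% in the controls. Psmb8 was thus the minor transcript of the pair in every library, and its share differed as much within a group as between groups. Psmb8, Psmb9 and Psmb10 had log2 fold changes of 0.11 ± 0.89 (SE), -0.14 ± 0.76 (SE) and -0.17 ± 0.57 (SE) and edgeR adjusted p of 0.989, 0.984 and 0.974.

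A list of 9 interferon and antigen presentation genes, Irf1, Tap1, Tap2, Gbp2, Gbp3, B2m, H2-K1, H2-D1 and Nlrc5, was added after these values had been seen. It summed to 798, 847 and 376 CPM in the Tppp3 libraries and to 459.5, 760.0 and 995 CPM in the controls, again with Tppp3 library 3 and control library 1 low, though Tppp3 library 2 was slightly above library 1. The 9 microglia genes, all tested and 0 called, summed to 162, 258 and 136 CPM in the Tppp3 libraries and 146, 239 and 227 CPM in the controls, and 6 blood myeloid genes, 4 of them tested, to 41.6, 57.5 and 22.5 CPM in the Tppp3 libraries and 25.9, 41.2 and 53.5 CPM in the controls. Both were low in Tppp3 library 3 and control library 1 too, but their highest sums lay in Tppp3 library 2, not in library 1. Among the controls, the microglia sum was highest in library 2. The list of 4 astrocyte genes shared these low libraries. It summed to 104, 142 and 59.1 CPM in Tppp3 libraries 1, 2 and 3. In control libraries 1, 2 and 3 it summed to 67.45, 123.5 and 125 CPM. The Müller glia list did not share them, and in each group its highest sum lay there, at 4807 and 4412 CPM. The part of immune cells, of astrocytes or of interferon in the Psme1 and Psme2 values was not tested.

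The spread between libraries set the same genes apart. Among 38 proteasome genes with a mean of at least 20 CPM, the coefficient of variation over the 6 libraries had a median of 5.14%, beside 5.99% for all 8286 tested genes above that level. Psmd2 had the smallest in the family, 1.12%, and 0.0724% of those genes had a smaller one. Psmd7 followed at 1.95% and Psme3 at 2.25%. Counting alone gives about 1.79% at the depth of Psmd2, and its spread lay within that; Psmd2 and Psmb3 were singled out after their values were seen. Psme1 stood at 28.9% and Psme2 at 24.8%, where counting gives about 4.48% and 5.12%. Of the genes above 20 CPM, 98.8% varied less than Psme1 and 98.5% less than Psme2. Without those 2 genes, the family's highest value was 10.8%, in Psmb3.

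**Figure D4:**
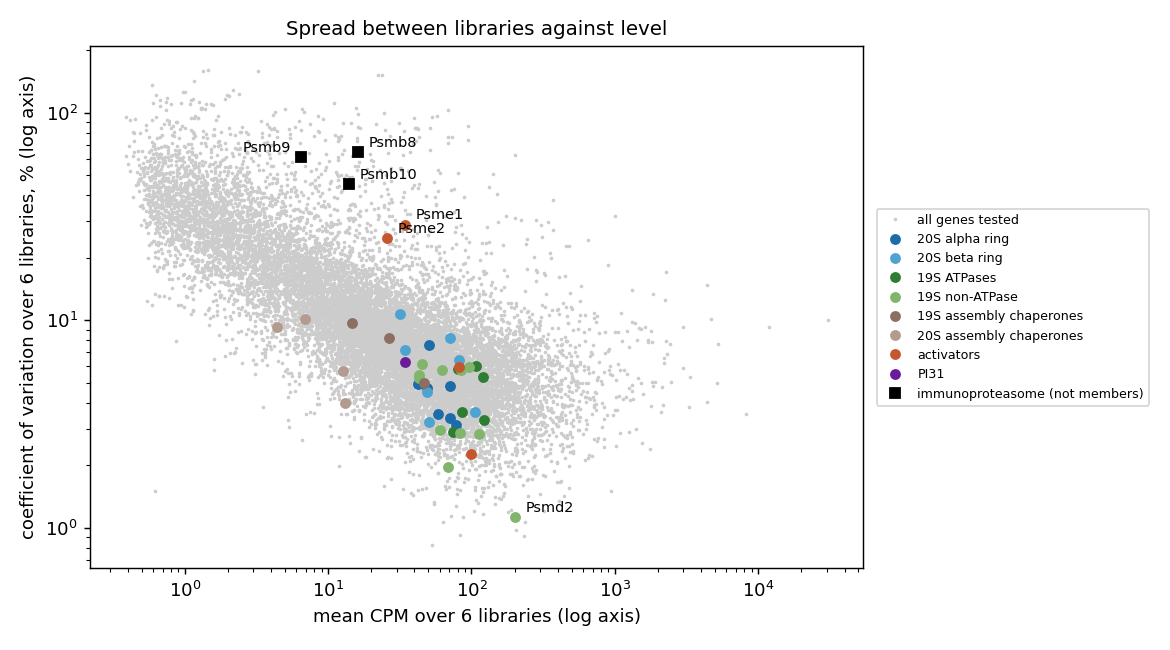
Coefficient of variation over the 6 libraries of both groups against mean CPM, both on log axes, for all tested genes (grey), proteasome genes by class (circles) and immunoproteasome genes (squares). Most proteasome genes lie within the cloud at their level, Psmd2 lies near its lower edge, and Psme1 and Psme2 lie near its upper edge.

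Levels were compared between genes per kilobase of transcript, over all 6 libraries. In the 20S core, Psmb4 was the highest at 89.0 CPM per kb, Psmb6 followed at 88.5, and Psma2 was the lowest at 24.2, a 3.68-fold range around a median of 45.8. In the 19S cap, Psmc5 was the highest at 81.6 CPM per kb and Psmd11 the lowest at 21.4, with a median of 45.1. Psmb4 and Psmb6 did not differ beyond their spread. The order within each complex depended on the length used: per kilobase of coding sequence, an alternative chosen after the values were seen, Psmb3 was the lowest core gene at 51.8 and Psma2 stood at 99.8, while Psmc3 and Psmd6 were the highest and lowest cap genes at 91.7 and 36.7. Psmb4 was the highest core gene on both scales.

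Per kilobase of transcript, assembly chaperones were scarcer than the core and cap subunits, at 7.79 to 12.5 CPM per kb. Per kilobase of coding sequence they overlapped with the cap. There the chaperone gene Psmd9 stood at 40.0, above the cap genes Psmd1 at 39.6 and Psmd6 at 36.7. Among the activators Psme3 stood at 37.5, Psme1 at 30.9, Psme2 at 26.6 and Psme4 at 12.6 CPM per kb of transcript. The cap to core ratio of levels summed per kilobase of transcript was 1.13, 1.14 and 1.17 in Tppp3 libraries 1, 2 and 3 and 1.12, 1.15 and 1.12 in control libraries 1, 2 and 3. It was highest in Tppp3 library 3, and the groups overlapped. The sums took in 17 cap genes and 16 core genes, so the ratio does not compare levels per gene. Median levels of the tested genes were 45.1 for the cap and 45.8 for the core per kilobase of transcript. Per kilobase of coding sequence these medians were 60.8 and 70.5.

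**Figure D5:**
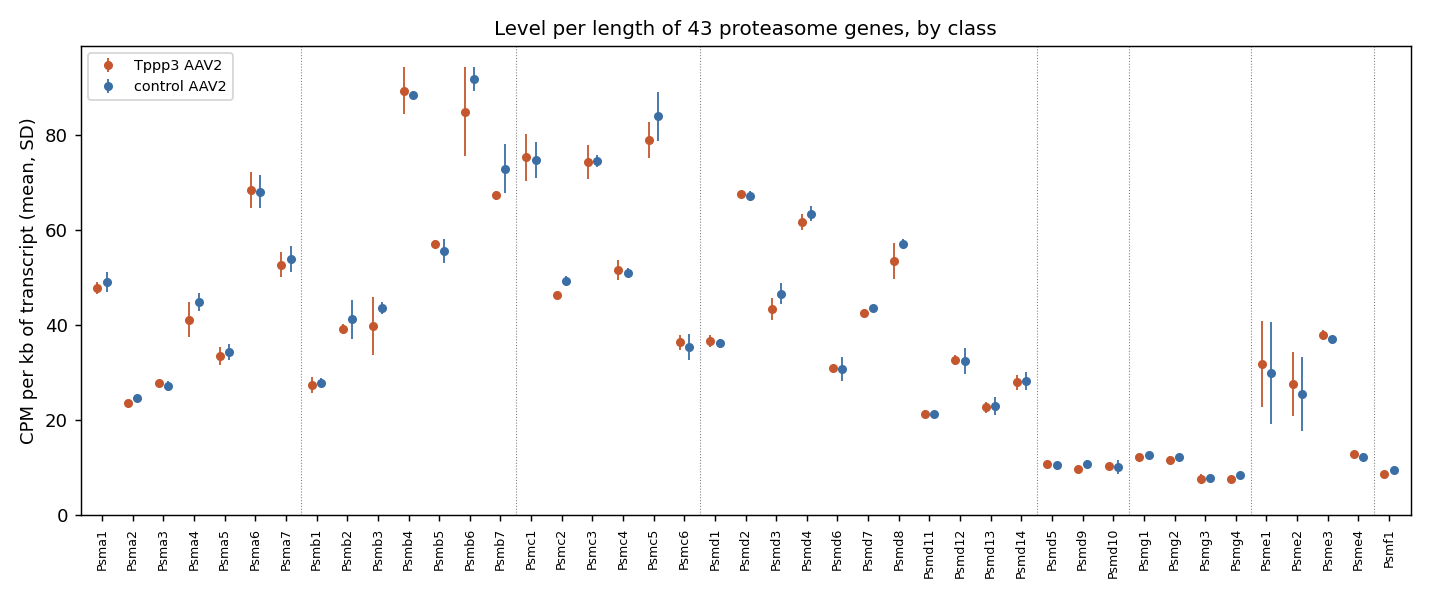
Mean CPM per kilobase of transcript, with SD over 3 libraries, of the 43 tested proteasome genes in Tppp3 AAV2 libraries (left point) and control AAV2 libraries (right point), with dotted lines between classes. The points of core and cap genes run from 21.3 (Psmd11, control) to 91.9 (Psmb6, control), and those of the chaperones lie lower on this scale.

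Genes that feed or serve the proteasome were taken from 4 further lists, of which 29 of 30 genes were in the table and tested, and 0 passed at an edgeR adjusted p under 0.05. Of these, 15 fold changes were positive and 14 negative, with a median of 0.0072. On the lower side, 2 had an unadjusted p under 0.05, beside 3.55% of all tested genes. Of the ubiquitin supply genes, Rps27a, which encodes ubiquitin fused to a ribosomal protein, stood at 105, 106 and 101 CPM in Tppp3 AAV2 libraries 1, 2 and 3 and at 109, 125 and 134 CPM in control AAV2 libraries 1, 2 and 3. All 3 Tppp3 values lay below the controls, at a log2 fold change of -0.24 ± 0.069 (SE) with an unadjusted p of 0.00536 and an edgeR adjusted p of 0.638. Ubb, a polyubiquitin gene, overlapped between groups at a log2 fold change of -0.055.

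On the other side, Ecpas, whose product tethers cap and core, stood at 154, 149.5 and 159 CPM in Tppp3 AAV2 libraries 1, 2 and 3 and at 139.8, 143 and 146 CPM in control AAV2 libraries 1, 2 and 3. It was the 1 gene of the 4 lists with an unadjusted p under 0.05 on the higher side, where 3.67% of all tested genes lay. All 3 Tppp3 values lay above the controls, at a log2 fold change of 0.11 ± 0.048 (SE) with an unadjusted p of 0.0377 and an edgeR adjusted p of 0.673. Pomp, the maturation factor of the core, had a log2 fold change of -0.086 (edgeR adjusted p = 0.838). Nfe2l1 encodes NRF1, the transcription factor that raises proteasome genes when degradation fails, and had a log2 fold change of 0.039. Ddi2, the protease that activates NRF1, and Akirin2, which brings proteasomes into the nucleus, had log2 fold changes of 0.11 and 0.11, with edgeR adjusted p of 0.756 and 0.840. Among 9 genes that deliver substrates, the ubiquitin receptor gene Ubqln4 had a log2 fold change of 0.089, with an edgeR adjusted p of 0.788.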

How the data were processed

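Retinal RNA was enriched for poly(A) and sequenced as paired reads, per the labels' protocols. The authors deposited raw counts per gene, and the submitters' processing notes name the genome build GRCm39; no aligner, counter or annotation is given in the sources used here, nor whether strand was used, so reads of overlapping genes cannot be told apart. Titles name 4 control and 3 Tppp3 samples, while the treatment protocol states the numbers the other way round. The fourth control was not analysed here. The table also held 1 column whose name reads as Tppp3 library 4 and fits no title, and it was left out; whether it stands for control 4 cannot be told from the labels. A spike-in was added at library preparation, per the labels' protocols, but the values here were scaled without one.

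The edgeR 4.0.16 quasi-likelihood test (R 4.3.3) was run on all 14750 genes that passed filterByExpr, scaled by TMM, with Benjamini-Hochberg adjustment, no covariate and a 0.05 threshold. Variation between libraries beyond counting noise, as edgeR's common coefficient, came to 11.9%, and it may be technical. CPM used the scaled library sizes. Totals of 10961443 to 21843892 counts set the precision, and intervals for single values cover the spread between these libraries. The 6 pairs of libraries within a group all differed by more than sampling noise, with a chi-square per gene of 3.99 to 13.4 over genes with at least 10 counts. Lengths and coding sequences came from the GENCODE M21 principal transcripts, and promoter windows from RefSeq. The pipeline was also run on counts simulated from the fitted means and spread of these libraries. The outcome of that run is not reported here, and no result above rests on it. Genes were named by rule: the smallest p in each class, all activators, PI31, the catalytic and ubiquitin-handling subunits, and the most and least abundant genes per length. The genes and lists were chosen with earlier results of these data known. Alternatives were DESeq2 1.42.0, voom with quality weights in limma 3.58.1, other scalings and filters, thinning, leaving out each library, a replicate block, an offset for GC content and length, and a pigment epithelium covariate. Some genes and motifs are not reported here.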

Additional observations from a re-analysis of the deposited data

How the results depend on the processing

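No proteasome gene was called under any alternative run, and the smallest edgeR adjusted p any of them reached was 0.487, for Psma4 without Tppp3 library 2. Over all genes the number called was 2, against 14 with DESeq2, 0 with voom, 6 with no filter on low counts, 1 after thinning to equal depth and 0 to 3 when single libraries were left out. The median log2 fold change of the 19S cap, -0.0040, ranged from -0.026 to 0.0085 when libraries were left out. Tppp3 kept its log2 fold change of 0.94 under DESeq2 and passed the threshold there, at an adjusted p of 2.08e-05.

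Several log2 fold changes close to 0 turned sign, and the cause was not tested. After thinning, Psmd5 stood at -0.0037, Psmg2 at 0.056, Psmd14 at 0.0036, Psmb4 at -0.0086 and Psmd11 at -0.025. With the GC content and length offset, Psmd5 stood at -0.0042 and Psmd4 at 0.022. Psmd14 stood at 0.0062 with voom, Psmd11 at -0.0073 with total count scaling, and with the pigment epithelium covariate Psmd11 stood at -0.023 and Psme4 at -0.019. Others kept their sign but moved in size. The GC content and length offset moved Psmb5 to 0.12, Psmb4 to 0.074, Psmb6 to -0.022, Psmc5 to -0.038, Psmg4 to -0.051, Psme4 to 0.0056 and Psme1 to 0.16. The pigment epithelium covariate moved Psma4 to -0.045, Psmg2 to -0.0033, Psme1 to 0.41 and Psme2 to 0.25. Leaving out single libraries gave -0.026 to 0.069 for Psmd5, -0.11 to 0.40 for Psme1, -0.095 to 0.39 for Psme2, -0.043 to 0.043 for Psmd14, -0.034 to 0.048 for Psmb4 and -0.026 to 0.030 for Psmd11.

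Replicate numbers did not pair the libraries: same-numbered deviations correlated at -0.0294, 0.0508 and -0.262, and 1 of 6 libraries correlated best with its own number. With the replicate block, 1 gene in all and 0 proteasome genes were called. With the block and the GC content and length offset together, 0 genes were called, and Psmd5 and Psmd4 stood at -0.0017 and 0.023.

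With 3 libraries a group, the spread between libraries leaves the intervals of Psme1 and Psme2 too wide to bound a change well. Counting error is a small part of that spread.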
